A study of Homo sapiens with 12 samples.

Results

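The metallothionein genes and 2 genes of the cell's zinc response, 10 genes in all, were followed on 12 Illumina BeadChip arrays of Raji cells. The members were MT1A, MT1E, MT1F, MT1G, MT1H, MT1M, MT1X and MT2A, the transcription factor MTF1 and the zinc exporter SLC30A1, and all probes annotated to these symbols were taken. They were chosen by the measured difference between MBD2 knockdown and its controls in these same data, in which the MT1X probe was brighter under knockdown, so the comparison of MBD2 knockdown with its controls is a description for the members, without a test. The annotation named a probe for 9 of the 10 genes and 12 probes of the 48105 with complete values. MT1A had no probe carrying its symbol alone. Probes with a detection p-value under 0.05 on 2 or more arrays entered the tests. This held for 8 of the 12 member probes, which stand for 7 genes, and for 27789 probes and 13702 genes of the whole array.

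Raji is a B cell line established from a human Burkitt lymphoma, and the study compared hairpins aimed at regulators of CD20, the protein made by MS4A1. All cells carried a short hairpin RNA (shRNA) introduced by infection, were held in puromycin for 48 h and were harvested on day 3 after infection. Array set 1 held 2 arrays of shCREM (hairpins A and B, CREM being a cAMP-responsive transcription factor), 3 arrays of shMS4A1 (hairpins A, B and C) and 1 array of a non-targeting control hairpin (shNTC 3). Array set 2 held 2 arrays each of shMBD2_A and shMBD2_C, which are 2 hairpins against MBD2, a reader of methylated CpG, and 2 arrays of the non-targeting control (shNTC 1 and shNTC 2, labelled NTC 01 and NTC 02). Every knockdown was set against the control of its own array set, so shMS4A1 and shCREM were compared with the single array shNTC 3. The labels do not say whether arrays of a group came from separate cultures, and p-values here measure the spread between these arrays.

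Metallothioneins are small cysteine-rich proteins that bind zinc and copper and buffer them inside the cell. When free zinc rises, the zinc-finger protein MTF1 binds metal response elements in the promoters of the metallothionein genes and of SLC30A1, whose protein (ZnT1) carries zinc out of the cell across the plasma membrane. Metallothionein transcription is also known to respond to cadmium, oxidative stress and glucocorticoids, and the human genes lie together in a cluster on the long arm of chromosome 16.

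The promoter windows of 5 of the 10 members were held in the RefSeq promoter table for GRCh38.p14, namely MT1H, MT1X, MT2A, MTF1 and SLC30A1. Each window spans 250 bases before to 50 bases after the annotated start of transcription. The core of the metal response element was searched on both strands as TGCACNC and TGCGCNC, and matches are in capitals below, those of the reverse strand being shown as they read on the printed strand. The windows of MT2A and MT1X are shown because these 2 metallothioneins were detected on every array, MT1H because it was detected on 1 array, and SLC30A1 because it is the other known target of MTF1 among the members.
MT2A (chr16:56608334-56608633, plus strand): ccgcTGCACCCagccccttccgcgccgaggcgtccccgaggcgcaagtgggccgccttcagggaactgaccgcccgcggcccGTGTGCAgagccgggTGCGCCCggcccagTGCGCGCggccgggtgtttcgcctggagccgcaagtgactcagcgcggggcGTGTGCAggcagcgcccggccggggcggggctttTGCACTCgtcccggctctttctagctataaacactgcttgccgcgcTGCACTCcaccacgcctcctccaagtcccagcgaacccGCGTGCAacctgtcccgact
MT1X (chr16:56682220-56682519, plus strand): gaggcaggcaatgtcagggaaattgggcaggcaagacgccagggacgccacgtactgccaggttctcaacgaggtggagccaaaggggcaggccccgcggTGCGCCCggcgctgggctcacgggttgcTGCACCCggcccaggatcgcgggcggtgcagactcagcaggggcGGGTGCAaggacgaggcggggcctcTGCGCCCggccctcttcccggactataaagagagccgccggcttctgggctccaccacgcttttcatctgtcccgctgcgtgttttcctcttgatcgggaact
MT1H (chr16:56669564-56669863, plus strand): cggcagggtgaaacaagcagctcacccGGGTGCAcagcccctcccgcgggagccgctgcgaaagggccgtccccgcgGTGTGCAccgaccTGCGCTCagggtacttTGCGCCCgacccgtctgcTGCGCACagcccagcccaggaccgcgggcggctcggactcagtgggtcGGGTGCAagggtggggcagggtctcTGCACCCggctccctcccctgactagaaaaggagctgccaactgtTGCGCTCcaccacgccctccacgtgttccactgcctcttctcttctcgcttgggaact
SLC30A1 (chr1:211579112-211579411, minus strand): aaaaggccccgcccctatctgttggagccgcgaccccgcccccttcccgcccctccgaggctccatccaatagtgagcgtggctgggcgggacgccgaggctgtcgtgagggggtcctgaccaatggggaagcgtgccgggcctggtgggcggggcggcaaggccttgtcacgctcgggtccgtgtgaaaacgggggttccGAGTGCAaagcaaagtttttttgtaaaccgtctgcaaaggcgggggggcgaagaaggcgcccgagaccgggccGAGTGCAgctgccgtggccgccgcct

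The MT2A window held 8 core matches, 5 on the forward and 3 on the reverse strand. As many matches were found in 0.01994% of the 35114 promoter windows of the table. The MT1H window also held 8, and the MT1X window held 4, a number reached by 0.6009% of all windows. SLC30A1 held 2 matches, both on the reverse strand, as 8.601% of windows did or exceeded, and the MTF1 window held 0. At least 1 match was present in 29.55% of all windows. A TATAAA box stood 29 bases before the start of MT2A and 30 bases before that of MT1X. This box was in 7.33% of all windows and was not found in the windows of MT1H, SLC30A1 and MTF1. All 5 windows were richer in CpG than the median window of 14, with 37 in MT2A, 30 in SLC30A1, 26 in MT1X, 25 in MT1H and 24 in MTF1. MT1H held as many matches as MT2A, yet its probes were detected on 1 of 12 arrays and the MT2A probe on all 12. Matches are letters only, and binding was not measured.

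**Figure D1:**
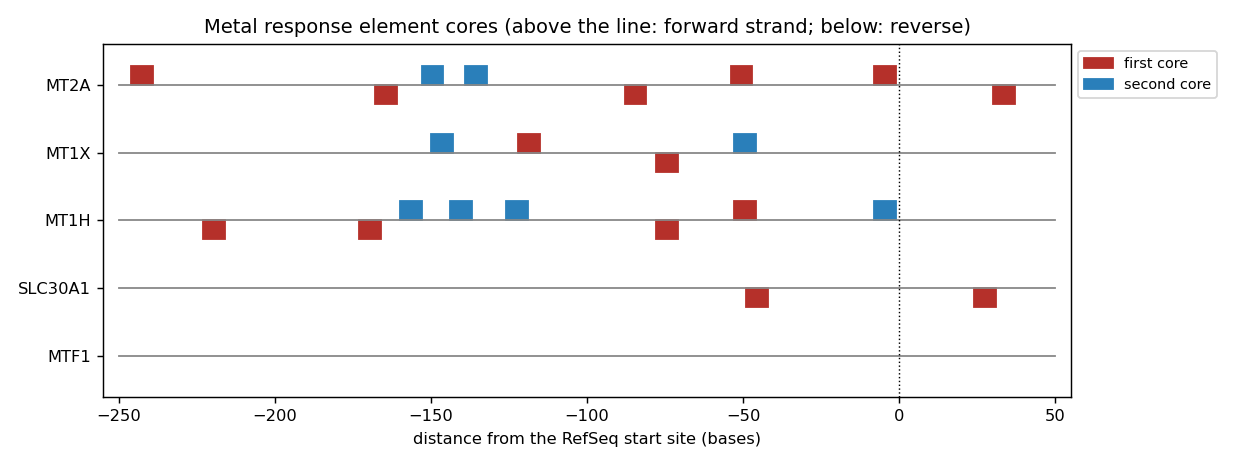
Positions of the metal response element cores in the promoter windows of the 5 members that the RefSeq table holds, in bases from the start of transcription (dotted line), forward matches above each line and reverse matches below it, TGCACNC in red (first core) and TGCGCNC in blue (second core). MT2A and MT1H have 8 matches each, MT1X 4, SLC30A1 2 and MTF1 0.

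The arrays themselves were checked briefly. MBD2 was lower on the shMBD2 arrays (5.38 to 5.92, log2 normalized intensity) than on all others (6.94 to 7.71), and MS4A1 was lower on the 3 shMS4A1 arrays (6.17 to 6.19) than on shNTC 3 (7.35). Of the set 2 controls shNTC 2 had MS4A1 at 6.24, near the shMS4A1 arrays, and shNTC 1 at 7.11. The CREM probe was near background, at 4.24 to 5.10 on all 12 arrays, so it does not check the shCREM labels. B cell markers were present, with CD79A, CD79B, CD22 and MS4A1 detected on every array. The summed level of the B cell list was 23423 to 30656 intensity units, that of the T and NK cell list 125 to 180 and that of the myeloid list 132 to 168. The epithelial and fibroblast list summed to 207 to 312, with 1 to 3 of its 5 genes detected, COL1A1 on every array. Raw intensities had medians of 99.2 to 105 on the arrays of set 1 but 76.9 to 86.8 on those of set 2, and shNTC 1 had the fewest detected probes, 18652 against 19614 to 20483 on the other 11 arrays. With 1 to 4 arrays a group, the precision of what follows is low. The arrays measure RNA from whole cultures, in which fewer cells of a kind and less RNA per cell cannot be told apart.

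MTF1, the zinc-sensing factor, was detected on all 12 arrays. In set 1 its level was 7.21 and 7.11 on shCREM hairpins A and B, 6.88, 6.68 and 6.72 on shMS4A1 hairpins A, B and C, and 6.99 on shNTC 3. In set 2 it was 7.53 and 7.87 on shMBD2_A, 7.89 and 7.47 on shMBD2_C, and 7.40 and 7.80 on shNTC 1 and 2. On this normalized scale its lowest value in set 2 lay above its highest in set 1. With the authors' processed intensities the sets overlapped, at 202 to 256 in set 2 and 191 to 242 in set 1. Within set 2 the MBD2 and control arrays overlapped. The mean difference of shMBD2 from its controls was 0.09 ± 0.22 (log2, standard error, 4 against 2 arrays).

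MT1X and MT2A were the 2 metallothioneins detected on all 12 arrays, and both were higher on every MBD2 array than on its controls. MT1X encodes one of the metallothionein-1 isoforms, which differ from each other in few residues. Its level on the MBD2 arrays was 11.57 and 11.98 for hairpin A and 11.32 and 11.45 for hairpin C. On the controls of the same set it was 10.59 (shNTC 1) and 8.94 (shNTC 2). All 4 MBD2 arrays were above both controls, but the controls stood 1.65 apart, further than the 4 MBD2 arrays among themselves. The mean difference was 1.81 ± 0.35, a 3.52-fold higher mean. It was 0.99 (1.99-fold) against shNTC 1 alone and 2.64 (6.23-fold) against shNTC 2 alone.

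MT2A encodes metallothionein-2, which is made in most human tissues. On the MBD2 arrays its level was 11.05 and 11.62 for hairpin A and 10.91 and 10.73 for hairpin C. The controls were at 10.01 (shNTC 1) and 9.19 (shNTC 2). The 4 MBD2 arrays were again all above both controls, and shNTC 1 was again the higher control. The mean difference was 1.47 ± 0.26, a 2.78-fold higher mean, with 1.06 (2.09-fold) against shNTC 1 and 1.88 (3.69-fold) against shNTC 2. Both hairpins showed it: hairpin A lay 1.73 and hairpin C 1.22 above the mean of the controls for MT2A, and 2.01 and 1.62 above it for MT1X.

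In set 1 neither gene stood clearly on the same side of the control on all arrays of a knockdown. MT1X was 10.21 and 9.08 on shCREM A and B, 8.22, 8.96 and 9.17 on shMS4A1 A, B and C, and 9.16 on shNTC 3. MT2A was 9.72 and 8.55 on shCREM A and B, 9.24, 9.68 and 9.57 on shMS4A1, and 9.42 on shNTC 3. For both genes hairpin A of shCREM was above the control and hairpin B below it. The 3 shMS4A1 arrays lay on both sides of it for MT2A. For MT1X shMS4A1 A and B were below it and C was level with it (9.168 against 9.164). No array of set 1 reached the MT1X level of any MBD2 array.

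**Figure D2:**
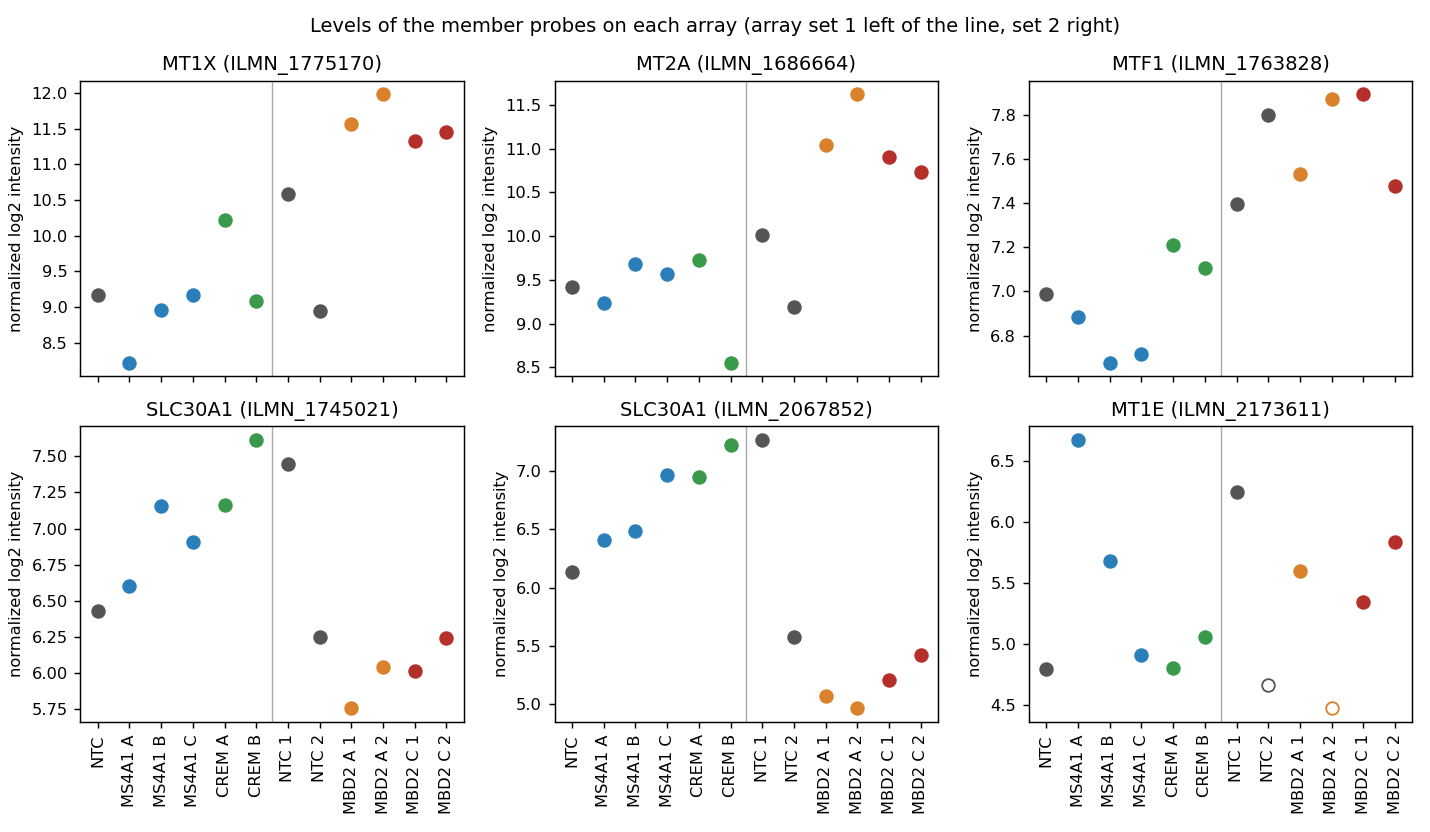
Normalized log2 intensity of 6 member probes on each of the 12 arrays, with set 1 left of the line and set 2 right of it. Grey points are controls, blue shMS4A1, green shCREM, orange shMBD2_A and red shMBD2_C, and open points were not detected. MT1X and MT2A are higher on all 4 MBD2 arrays (at least 11.32 and 10.73) than on the other 8, while the SLC30A1 probes are lowest there. On the first SLC30A1 probe the second shMBD2_C array is level with shNTC 2.

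The other metallothionein-1 genes were detected on fewer arrays. MT1E was detected by one of its probes on 10 of 12 arrays. That probe was at 5.60 and 4.47 on shMBD2_A, 5.35 and 5.84 on shMBD2_C and 6.25 and 4.67 on shNTC 1 and 2, the values 4.47 and 4.67 being undetected. In set 1 it was 4.80 and 5.06 on shCREM, 6.68, 5.68 and 4.91 on shMS4A1 A, B and C, and 4.80 on shNTC 3. MT1E thus had its highest level on shMS4A1 hairpin A, where MT1X was at its lowest of all 12 arrays, and its MBD2 and control arrays overlapped, with a mean difference of -0.14 ± 0.45. The sign of that difference depended on the control, at -0.93 against shNTC 1 and 0.65 against shNTC 2. The other MT1E probe was detected on 0 arrays.

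MT1F was detected on 2 arrays, 1 of each MBD2 hairpin, at 4.88 and 5.04, and its undetected values ranged from 4.29 to 4.71. MT1G was detected on 3 arrays, shCREM hairpin A (4.76) and both arrays of shMBD2_A (5.17 and 5.05). Its mean under shMBD2 was 0.37 ± 0.21 above that of the set 2 controls, on which it was not detected, and 0.11 above it with the authors' processed values. On the shMBD2_C arrays MT1G was at 4.82 and 4.29, neither detected, against 4.47 and 4.45 on the controls. MT1H, with 2 probes, was detected by 1 of them on 1 array, shCREM hairpin B, and MT1M on 0 arrays. MT1F and MT1G passed the filter only through these few arrays.

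SLC30A1, the zinc exporter, had 2 probes, both detected on all 12 arrays, and within each array set they ordered the group means alike. The first was at 5.75 and 6.04 on shMBD2_A and 6.01 and 6.24 on shMBD2_C, against 7.45 on shNTC 1 and 6.25 on shNTC 2. The second was at 5.07 and 4.97 on shMBD2_A and 5.21 and 5.42 on shMBD2_C, against 7.27 and 5.58. On both probes all MBD2 arrays were below both controls, with shNTC 2 close to the MBD2 arrays and shNTC 1 far above them. On the first probe the second shMBD2_C array was level with shNTC 2 (6.243 against 6.247). The mean differences were -0.83 ± 0.30 and -1.26 ± 0.35. Against shNTC 1 they were -1.43 and -2.10, and against shNTC 2 they were -0.23 and -0.41. SLC30A1 therefore lay on the opposite side of its controls from MT1X and MT2A.

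Of the 8 member probes, 2 (MT1X and MT2A) were among the 274 probes higher under shMBD2 at an adjusted p under 0.05 in limma. Among the 308 lower probes 0 were members, and 2.09% of all 27789 tested probes passed in either direction. All 4 MBD2 arrays were above both controls for 2 member probes, as for 13.5% of all probes. They were below both for the 2 SLC30A1 probes, as for 12% of all, though on the first probe the second shMBD2_C array was level with shNTC 2. This contrast chose the genes, so the counts are no test of the members and support nothing further.

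**Figure D3:**
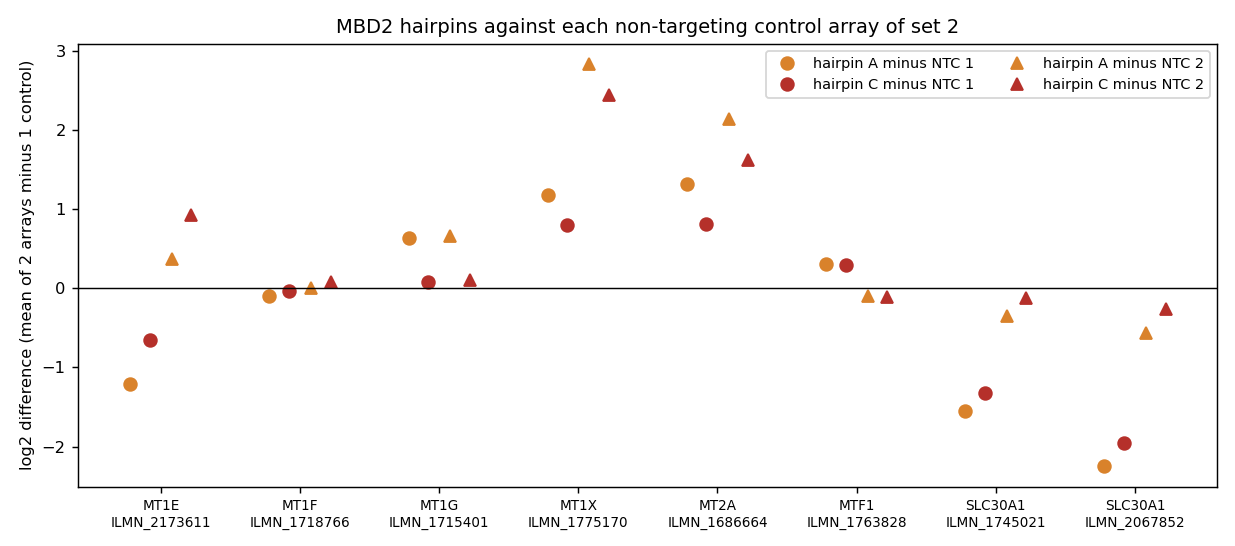
Difference of each MBD2 hairpin (mean of 2 arrays, log2) from each control array of set 2, for the 8 member probes that passed the filter. Circles are against shNTC 1 and triangles against shNTC 2. For MT1X every point is above 0, between 0.80 and 2.83, and for the SLC30A1 probes every point is below 0, between -2.25 and -0.12.

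The controls of set 2 differed from each other in most of these genes by more than in most probes. Over all tested probes the median size of the difference between shNTC 1 and shNTC 2 was 0.27. For MT1X it was 1.65, larger in size than for 99.8% of tested probes. The SLC30A1 probes differed by 1.20 and 1.69 (98.4% and 99.8%), MT1E by 1.58 (99.7%) and MT2A by 0.82 (92.4%), all higher on shNTC 1. MTF1 differed by -0.40 (66.4%), lower on shNTC 1, and the near-background MT1F and MT1G by 0.11 (23.6%) and 0.02 (5.48%). The MT2A difference was 0.45 with median scaling. Thus MT1X, MT2A, MT1E and SLC30A1 were all higher on shNTC 1 than on shNTC 2. In the shMBD2 difference MT1X and MT2A parted from SLC30A1. With the authors' own processed values the control differences kept their sign, at 1.48 for MT1X but 0.59 for MT1E and 0.87 for the second SLC30A1 probe.

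Single hairpins of set 1 differed in some of the same genes, but not in all of them nor in every pair. Between shCREM hairpins A and B, MT1X differed by 1.13 and MT2A by 1.17, larger in size than 97.5% and 97.8% of tested probes. In that pair MT1E differed by -0.25 (49.7%) and the SLC30A1 probes by -0.45 and -0.27 (72.4% and 52.1%). Between shMS4A1 hairpins A and C, MT1E differed by 1.77 (99.9%), higher on A, and MT1X by -0.95 (97.6%), lower on A. MT2A differed there by -0.33 (68.4%). Between shMS4A1 hairpins B and C, MT1X differed by -0.21 (51.8%), MT2A by 0.11 (30%) and MT1E by 0.77 (94.8%). Between the 2 arrays of each MBD2 hairpin MT1X differed by -0.41 and -0.12 and MT2A by -0.57 and 0.18. These are differences of 1 array from 1 array and have no replicate check.

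The comparisons that did not choose the genes were tested with limma, with adjustment over all 27789 probes. The control of set 1 is 1 array, so its own spread was not measured and the errors, p-values and intervals against it take their spread from the other groups. For shMS4A1 against shNTC 3, 0 of 8 member probes passed, where 0.13% of all probes did, and 0 had an unadjusted p under 0.05. The values ran from -0.38 ± 0.47 for MT1X to 0.96 ± 0.60 for MT1E, and every adjusted p was 0.999. The 95% interval of MT1X was -1.36 to 0.60 and that of MT2A was -0.67 to 0.81. All 3 shMS4A1 arrays had SLC30A1 above shNTC 3 on both probes, by 0.46 ± 0.40 and 0.49 ± 0.47 on average.

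For shCREM against shNTC 3, 2 arrays of different hairpins against 1, with the spread again taken from the other groups, 0 of 8 member probes passed, where 0.0108% of all probes did. SLC30A1 had the lowest p, with differences of 0.96 ± 0.42 (adjusted p = 0.625) and 0.95 ± 0.50 (adjusted p = 0.717) on its 2 probes, higher on 2 of 2 arrays. Its first probe was the 1 member probe with an unadjusted p under 0.05. MT1X was 0.48 ± 0.49 and MT2A -0.29 ± 0.37 from the control, with the hairpins on opposite sides.

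The direct comparison of shCREM with shMS4A1 did not use the control. In it 0 of 8 member probes passed, where 4.09% of all probes did. MT1X came nearest, 0.87 ± 0.37 higher on shCREM (95% interval 0.09 to 1.64, adjusted p = 0.238), with an unadjusted p of 0.0302, and the groups overlapped, since shCREM B at 9.08 was below shMS4A1 C at 9.17. MTF1 was 0.40 ± 0.23 higher on shCREM (adjusted p = 0.418), and MT2A was -0.36 ± 0.28 (adjusted p = 0.595).

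The 2 MBD2 hairpins could be compared with each other. In limma 0 of 8 member probes passed, and 0% of all 27789 probes did, with 727 of them at an unadjusted p under 0.05. MT1X was 0.39 ± 0.40 and MT2A 0.51 ± 0.31 higher on hairpin A. The 95% intervals were -0.46 to 1.24 and -0.13 to 1.15, both of which reach past a log2 difference of 1. MT1G was the 1 member probe with an unadjusted p under 0.05 (0.0302), at 0.56 ± 0.24, or 0.22 with the authors' values. Of the MBD2 arrays it was detected on those of hairpin A alone and it passed the filter largely through them, so nothing is read from its p.

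**Figure D4:**
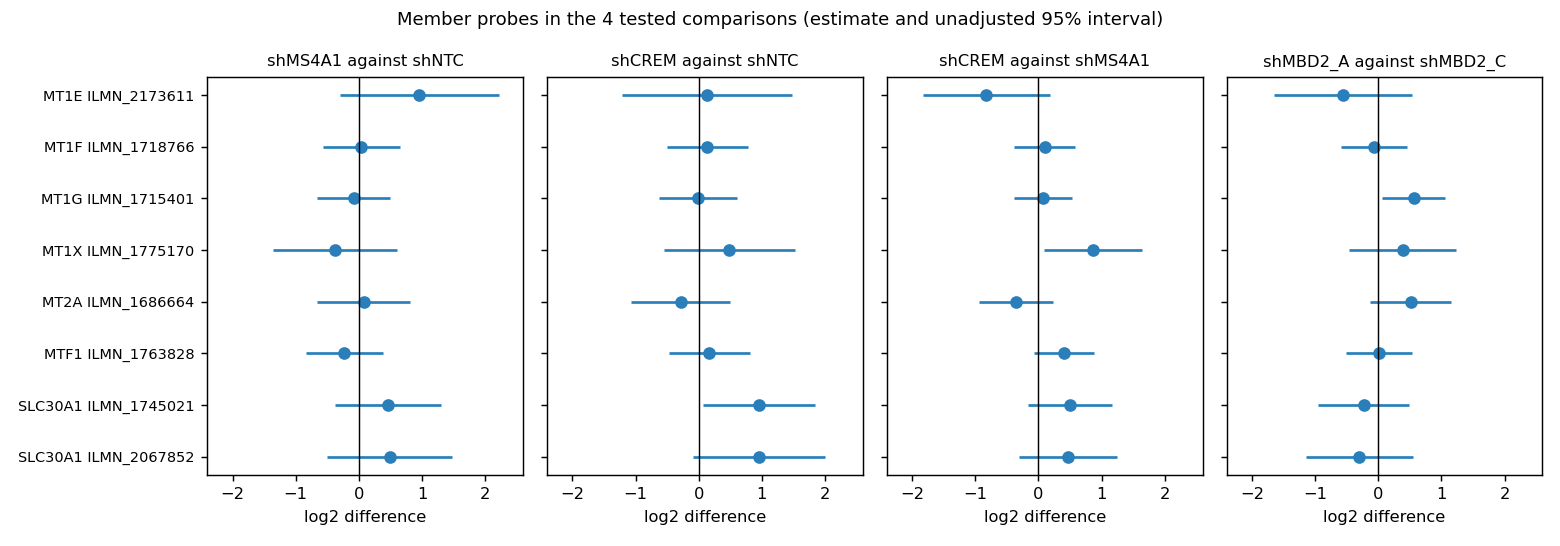
Log2 difference of each member probe in the 4 tested comparisons, with its unadjusted 95% interval from limma. Most intervals cross 0, the exceptions being the first SLC30A1 probe for shCREM against shNTC (0.07 to 1.85), MT1X for shCREM against shMS4A1 (0.09 to 1.64) and MT1G for shMBD2_A against shMBD2_C (0.06 to 1.06), none with an adjusted p under 0.05.

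Other genes of metal handling, and of the stress and glucocorticoid responses, were followed as 7 lists with 75 genes, of which 64 had a named probe and 50 passed the filter. Under shMBD2, 0 of the 50 were higher and 1 was lower at an adjusted p under 0.05 in limma, where 2.09% of all probes passed. An unadjusted p under 0.05 was found for 12 of them and for 4126 of the 27789 probes. List medians ran from -0.60 to 0.11, against a median of 0.04 over all 13702 genes. The one that fell was TSC22D3, which encodes the glucocorticoid-induced leucine zipper. It was at 10.64 and 10.56 on shMBD2_A and 10.47 and 10.71 on shMBD2_C, against 11.87 and 11.42 on shNTC 1 and 2, a difference of -1.05 ± 0.17 (adjusted p = 0.0039) with all 4 arrays below both controls. Without shNTC 1 the difference was -0.83 and the call was lost (adjusted p = 0.134). SGK1, a kinase also induced by glucocorticoids, was at -0.73 ± 0.21 (adjusted p = 0.0827, or 0.0394 without shMS4A1 hairpin B). The median of the 7 measured genes of this list was the -0.60 above, the value of PER1, which was detected on 5 arrays. NR3C1 was lower mostly on shMBD2_C, at 5.62 and 5.43. It was at 6.69 and 6.51 on shMBD2_A, against 6.82 and 6.80 on shNTC 1 and 2. DUSP1 was at -0.26 ± 0.24 (adjusted p = 0.686), its MBD2 and control arrays overlapping. The list did not fall as a whole, since FKBP5 was at 0.36 ± 0.23 (adjusted p = 0.519) and ZBTB16 at 0.13 ± 0.21 (adjusted p = 0.841).

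The zinc transporters did not pass under shMBD2 with both controls. Among 7 measured exporters other than SLC30A1, which move zinc out of the cytosol, the nearest were SLC30A5 at 0.47 ± 0.17 (adjusted p = 0.164) and SLC30A7 at 0.39 ± 0.21 (adjusted p = 0.398). Among 12 measured importers, which bring zinc into the cytosol, SLC39A9 was at -1.10 ± 0.33 (adjusted p = 0.0933) and SLC39A6 at -0.61 ± 0.25 (adjusted p = 0.239). SLC39A9 stood at 7.33 on shNTC 1 and 6.08 on shNTC 2, against 5.39 to 5.72 on the MBD2 arrays, so it too was high on shNTC 1. Without shNTC 2, SLC39A9 (-1.73, adjusted p = 0.0111), SLC39A6 (-1.003, adjusted p = 0.0489) and SLC30A5 (0.68, adjusted p = 0.0496) passed, while without shNTC 1 they were at -0.47, -0.22 and 0.25 and did not. The importers' median was -0.23 and the exporters' 0.11.

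The copper, iron and stress lists had 0 genes past the threshold under shMBD2 with all arrays. In the copper list SOD1, the copper and zinc superoxide dismutase, was at 0.23 ± 0.10 (adjusted p = 0.246) and ATOX1, a copper chaperone, at -0.29 ± 0.14 (adjusted p = 0.346). In the iron list SLC11A2, an importer of iron and other metals, was at 0.76 ± 0.22 (adjusted p = 0.0811) and FTL, the ferritin light chain, at -0.19 ± 0.11 (adjusted p = 0.469). In the oxidative and heavy metal stress list HSPA1B, a heat shock protein induced by heavy metals, was at -0.61 ± 0.16 (adjusted p = 0.0573) and GCLM, a subunit of the enzyme that starts glutathione synthesis, at 0.54 ± 0.18 (adjusted p = 0.138). Without shNTC 2, HSPA1B (-0.78, adjusted p = 0.0268) and SLC11A2 (0.95, adjusted p = 0.0463) passed, and HSPA1B passed also without either shCREM array (adjusted p = 0.0359 and 0.0353). MT1IP, a metallothionein pseudogene and the only other gene of the cluster that was tested, was at 0.11 ± 0.19 (adjusted p = 0.86), detected on 3 arrays.

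For shMS4A1 and for shCREM against shNTC 3, 0 of the 50 list genes passed, with 4 at an unadjusted p under 0.05 in each, where 1613 and 2066 of the 27789 probes had one. Between shCREM and shMS4A1, 5 were higher on shCREM and 1 was lower, where 4.09% of all probes passed. Those higher were SGK1 (1.43 ± 0.22, adjusted p = 0.00131), TSC22D3 (1.21 ± 0.18, adjusted p = 0.00111), HSPA1B (1.08 ± 0.17, adjusted p = 0.00135), HSPH1 (0.79 ± 0.14, adjusted p = 0.00396) and the exporter SLC30A7 (0.92 ± 0.22, adjusted p = 0.0214). HSPH1 encodes a heat shock co-chaperone. Each was higher on 2 of 2 shCREM arrays than on all 3 shMS4A1 arrays. Against shNTC 3 each lay above it on shCREM and below it on shMS4A1. These differences were 0.99 and -0.44 for SGK1, 0.40 and -0.80 for TSC22D3, and 0.76 and -0.31 for HSPA1B. For HSPH1 they were 0.23 and -0.56, and for SLC30A7 0.42 and -0.50. A rise under shCREM and a fall under shMS4A1 are thus not told apart, and the arrays of each group carry different hairpins. The importer SLC39A4 was lower on shCREM (-0.93 ± 0.25, adjusted p = 0.0434). Without shCREM hairpin A the calls of SLC30A7 (0.55, adjusted p = 0.259), HSPH1 (0.62, adjusted p = 0.0578) and SLC39A4 (-0.79, adjusted p = 0.224) were lost. That of SLC30A7 was lost too without shMS4A1 hairpin A (adjusted p = 0.0711) or C (adjusted p = 0.0766), and that of SLC39A4 without any 1 of the shMS4A1, shCREM or shMBD2 arrays. The calls of SGK1, TSC22D3 and HSPA1B were kept without each single array, but that of TSC22D3 was lost without the array set as a block (adjusted p = 0.114).

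In the same comparison the genes with the next smallest p in each list did not pass. The importer SLC39A11 was at 1.03 ± 0.31 (adjusted p = 0.0695, or 1.73 and 0.00109 without shCREM hairpin B) and the exporter SLC30A10 at -0.48 ± 0.25 (adjusted p = 0.374). ATOX1 and COMMD1, a regulator of copper export, were at 0.40 ± 0.15 (adjusted p = 0.158) and 0.48 ± 0.19 (adjusted p = 0.211). TFRC, the transferrin receptor, was at -0.47 ± 0.25 (adjusted p = 0.383), FTL at -0.18 ± 0.12 (adjusted p = 0.505) and MT1IP at 0.02 ± 0.20 (adjusted p = 0.984).

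The genes that flank the metallothionein cluster on chromosome 16 were looked at next. In RefSeq gene order MT4, MT3 and MT2A stand at one end of the cluster and MT1X at the other, with the remaining MT1 genes and pseudogenes between. Of the 10 nearest protein-coding genes with a tested probe (CES1, GNAO1, NUDT21, OGFOD1 and BBS2 on the MT2A side, NUP93, CETP, NLRC5, PSME3IP1 and RSPRY1 on the MT1X side), 1 was higher and 0 were lower under shMBD2. Of all tested probes 2.09% passed in that comparison, and nothing about the flanks is read from 1 call. The gene that was higher was OGFOD1, a prolyl hydroxylase of a ribosomal protein, at 0.68 ± 0.15 (adjusted p = 0.0226). Its call was lost without any 1 of the 4 MBD2 arrays (adjusted p = 0.0573 to 0.0895) and without shNTC 1 (0.59, adjusted p = 0.211). The values of the 10 ran from -0.45 to 0.70, with PSME3IP1 highest (adjusted p = 0.0862) and a median of 0.07. In each of the other 4 comparisons 0 of the 10 passed, where 0% to 4.09% of all probes did. The lowest adjusted p in limma was 0.0578 for NUP93, a nuclear pore protein, between shCREM and shMS4A1 (-0.57 ± 0.16).

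Likeness of profiles was measured as the root mean square difference over the 12 arrays, each gene centred within its array set. MT1X was most like COL9A2 (0.42), DYNLT1 (0.45), MT2A (0.46), TRAPPC2B (0.49) and TSEN34 (0.51), where the median over all 13702 genes was 0.85. MT2A was most like H3-3B (0.26), MYL5 (0.31), AMH (0.31), GHDC (0.33) and SLC20A2 (0.35), where the median was 0.66, and MT1X stood at rank 159 for it. MT1G stood at rank 649 for MT1X and 289 for MT2A, MTF1 at 4504 and 6517, SLC30A1 at 12637 and 13477, and MT1E at 13580 and 13483. MT1E was thus near the bottom of the order for both metallothioneins. MT1G passed the filter largely through the arrays of shMBD2_A, where MT1X and MT2A were also high, so nothing is read from its ranks. The 5 genes named for MT1X shared 1 with the 5 found without shNTC 2, and those for MT2A also shared 1, so both sets of names rest on that array. All genes named as most like either one were higher under shMBD2, by 0.77 to 1.47. That contrast chose the members, so the likeness in part restates it and supports nothing further. A flat profile would lie 0.82 from MT1X and 0.62 from MT2A, near the medians over all genes.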

How the data were processed

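Of 12 Raji arrays the authors deposited raw intensities with a detection p-value per probe, per the file headers, and processed intensities on a linear scale. Names of image and normalization software are not given in the sources used here. Raw and processed tables name probes differently and were joined by their values, one to one for 48105 probes. Symbols came from the platform annotation, which gave 30113 probes 1 symbol, 8 several and 17984 none.

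Raw intensities were background-corrected, quantile-normalized and put on the log2 scale with neqc (offset 16) in limma 3.58.1 under R 4.3.3. A limma model with an intensity trend and the array set as a block was fitted to all 12 arrays and 27789 probes, two-sided, with Benjamini-Hochberg adjustment over all probes. Errors after ± are standard errors from this model. For genes outside the 10 members the brightest tested probe was used. Beside the members, 7 gene lists, the 5 tested protein-coding neighbours on each side of the cluster and the 5 genes most like MT1X and MT2A are named. The genes with the 2 smallest p-values per list are given for the 2 comparisons in which a list gene passed. The members and lists were chosen with earlier results of these data known. Other offsets, scalings, filters, the authors' values, the blocks and leaving out each array were tried.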

Additional observations from a re-analysis of the deposited data

Results flagged for a closer look

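SLC30A1 lay on opposite sides of the control in the 2 array sets, every shMBD2 array being below the mean of its controls and every shMS4A1 and shCREM array above shNTC 3. The difference of shMS4A1 from its control exceeded that of shMBD2 by 1.29 on the first probe and 1.74 on the second (log2). For shCREM the excess over shMBD2 was 1.80 and 2.21. These differences between array sets were not tested. On both probes shNTC 1 was the highest array of set 2 and shNTC 3 the lowest of set 1.

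MTF1 was below shNTC 3 on all 3 shMS4A1 arrays and above it on both shCREM arrays, a difference of 0.40 between the groups. The direct limma comparison of the groups gave an adjusted p of 0.418.

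Among metallothionein probes that did not enter the tests, MT1H was detected on shCREM hairpin B alone, at 4.76, and MT1B on the second shMBD2_C array alone, at 5.17, and neither was detected on a control.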

How the results depend on the processing

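The difference of MT1X under shMBD2 was 1.70 to 2.01 under other processing. It was 0.99 to 2.64 when 1 array was left out, the ends being the fits without shNTC 2 and without shNTC 1. This contrast chose the members, and all 4 MBD2 arrays lay above both controls. Leaving out 1 array could therefore not reverse the direction, and the kept direction supports nothing further. The count of member probes called was 0 in the 4 tested comparisons under every alternative. Fits with the replicate number as a replicate block moved no difference (MT1X 1.81) and so say nothing on its stability; they left the count at 0 and ended 1 call, that of SLC39A4 (-0.93, adjusted p = 0.0568). Without the set block the calls of TSC22D3 (-0.46, adjusted p = 0.627) and OGFOD1 (0.35, adjusted p = 0.57) under shMBD2 were lost. Between shCREM and shMS4A1 it lost those of TSC22D3 (adjusted p = 0.114), HSPH1 (0.119), SLC30A7 (0.0697) and SLC39A4 (0.0952). Median scaling lost HSPH1 (0.145), SLC30A7 (0.114), SLC39A4 (0.105) and OGFOD1 (0.188), and the fit without an intensity trend lost them too (0.0504 to 0.067). SLC30A7 was lost with each set alone (0.0729) and SLC39A4 with that, offset 50 or no filter (0.0513 to 0.0691). With a detection p under 0.01 on 3 arrays HSPA1B passed under shMBD2 (0.0456), and with the authors' values SLC39A11 passed (0.0483). Same-numbered arrays did not deviate together (correlations -0.06, -0.0065 and -0.03). The labels do not say whether the numbers pair the arrays, and these correlations, from 1 difference per group, cannot settle it. Comparisons with shNTC 3 cannot be fitted without that array, and where 1 array of a group was left its spread was taken from the other groups.

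Without the set block, values that changed sign were MT1E 0.078 and MT1F 0.087 under shMBD2, MT1F -0.17, MT1G 0.026 and MT2A -0.048 under shMS4A1, and MT1E -0.31, MT1F -0.064, MT1G 0.092 and MTF1 -0.24 under shCREM. With median scaling they were MT1F 0.019 (shMBD2), MT2A -0.088 (shMS4A1), and MT1G 0.0049 and MTF1 -0.015 (shCREM). MT1F under shMBD2 was 0.0025 with offset 50 and 0.0013 with each set alone, and MTF1 between the MBD2 hairpins was -0.0051 with the authors' values. Leaving out 1 array gave ranges that crossed 0 for dim or small differences. Under shMBD2 these were MT1E (-0.93 to 0.65), MT1F (-0.19 to 0.17), MTF1 (-0.11 to 0.30), MT1IP (-0.12 to 0.34). Under shMS4A1 these were MT1F (-0.045 to 0.086), MT2A (-0.018 to 0.20). Under shCREM these were MT1G (-0.17 to 0.14), MT1X (-0.083 to 1.05), MT2A (-0.87 to 0.30). Between shCREM and shMS4A1 these were MT1G (-0.086 to 0.22), MT2A (-0.94 to 0.23), MT1IP (-0.054 to 0.13). Between the MBD2 hairpins these were MT1E (-1.12 to 0.0099), MT1F (-0.43 to 0.29), MTF1 (-0.19 to 0.22).
The cause of these changes was not tested.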
